A study of Mus musculus with 4 samples.

Results

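The genes examined were 10 regulators and markers of the epithelial-mesenchymal transition (EMT): the transcription factor genes Snai1, Snai2, Zeb1, Zeb2, Twist1 and Twist2, and the switch genes Cdh1, Cdh2, Vim and Fn1. They were chosen by name as textbook EMT genes, with earlier results of these data known. They were read by symbol from the gene tables, where each had exactly 1 of the 23746 rows. PolyA RNA of 4 primary mammary tumors of female mice had been sequenced, 2 from triple-mutant WapCre;Rank;Brca1;p53 females (tumors 26043 and 26044) and 2 from double-mutant WapCre;Brca1;p53 females (tumors 26048 and 26050). All 4 tumors were labelled as mutant for Brca1 and p53, and the genotypes differed in Rank, which encodes the receptor of RANKL. The Cre recombinase was driven by the milk protein promoter Wap, so that floxed alleles were deleted in mammary epithelial cells and not by design in the stroma. Age and histological grade of each sequenced tumor are not given in the sources used here. The study graded its triple-mutant tumors as intermediate and its double-mutant tumors as intermediate or high, so grade may differ along with genotype. The triple- and double-mutant females are called littermates without naming pairs. No sort was applied, so the RNA of tumor cells and of stroma was measured together.

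In EMT, epithelial cells lose E-cadherin junctions and take up a motile, mesenchymal state. Factors of the Snail family (Snai1 and Snai2) and of the Zeb family bind E-box sequences through zinc fingers and repress epithelial genes such as Cdh1, which encodes E-cadherin, and Twist proteins act through a basic helix-loop-helix domain. Vimentin (Vim), N-cadherin (Cdh2) and fibronectin (Fn1) are the usual markers of the mesenchymal side, and the microRNAs of the miR-200 family hold Zeb mRNAs low in epithelia. In the normal mammary gland, Snai2 marks basal cells, so it is not a marker of mesenchyme alone. Fibroblasts, endothelial cells and other stromal cells also express Vim, Fn1 and Zeb factors.

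Values are FPKM (fragments scaled by transcript length and by library size, as deposited for each gene), and genotype differences are log2 fold changes of FPKM + 1, triple-mutant minus double-mutant, from limma fitted on the 12752 genes that reached 1 FPKM in 2 or more tumors. An exact permutation test of 1 gene, with so few tumors, has p = 0.333 as its smallest value. Between 12150 and 12681 genes per tumor had at least 1 FPKM. From the steps of low values in Cufflinks' intervals, the 4 libraries differed in depth by at most 1.08-fold (tumors 26044, 26048 and 26050 at 1.02, 1.04 and 1.08 relative to tumor 26043). Tnfrsf11a, the Rank gene, was at 2.07 and 0.962 FPKM in the triple-mutant tumors and at 10.6 and 11.9 FPKM in the double-mutant tumors, lower in both tumors labelled as Rank mutant (adjusted p = 0.225 from limma). Trp53, the p53 gene, was at 15.7 and 87.8 FPKM in triple-mutant tumors and 150 and 103 FPKM in double-mutant tumors, and Brca1 was at 3.26 to 5.69 FPKM in all 4. A gene-level FPKM also counts exons outside a deleted part, so the mutations of Brca1 and p53 rest on the labels. Epcam, an epithelial surface protein, was found in all 4 tumors, but at 25.7 FPKM in tumor 26044 against 347 to 516 FPKM in the other 3. Tumor 26044 thus stood apart from the other triple-mutant tumor, and values without it are given beside the results that rest on it.

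Snai2 was higher in both triple-mutant tumors, with a mean FPKM 19.6-fold that of the double-mutant tumors, and it was the only one of the 10 genes whose genotype difference was wider than the gaps between tumors of the same genotype. For most of the others the contrast lay within the triple-mutant pair. Tumor 26044 had the highest Snai1, Zeb1, Twist2, Vim and Cdh2 and the lowest Cdh1, whereas tumor 26043 had the lowest Snai1, Zeb1 and Fn1. Tumor 26044 was thus the highest for 5 of the 10 genes (24.2% of all tested genes) and tumor 26043 for 1 (27.9%), and the lowest tumor was 26050 for 5 (28.2%), 26043 for 3 (15.2%) and 26044 for 2 (39.0%). Tumor 26048 was the highest for the other 4 (23.2%). None of the 10 genes passed an adjusted p of 0.05 in limma.

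**Figure D1:**
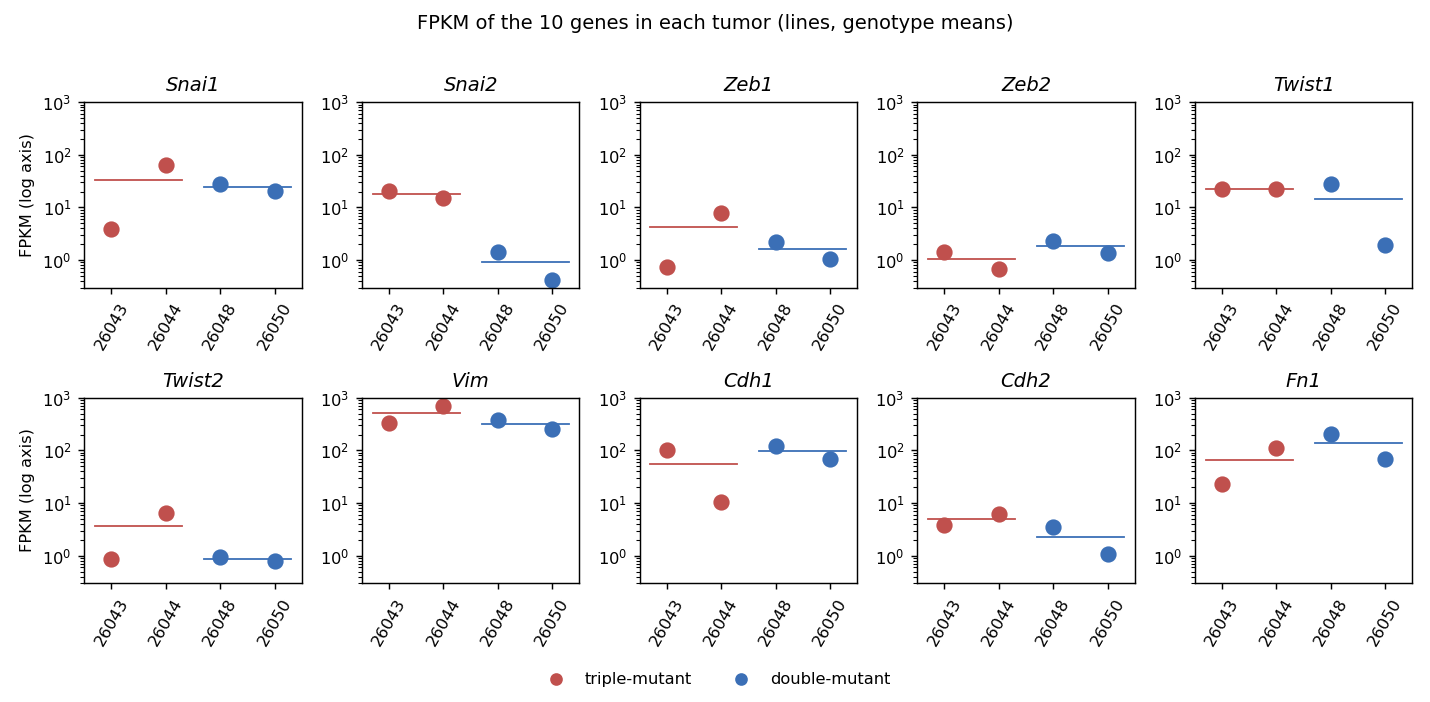
FPKM (log axis) of each of the 10 genes in the 4 tumors, triple-mutant in red and double-mutant in blue, with a line at each genotype mean. Snai2 separates the genotypes widely (20.9 and 15.0 against 1.42 and 0.413 FPKM), while Cdh1 at 10.4 FPKM and Snai1 at 62.7 FPKM set tumor 26044 apart from tumor 26043.

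Among the Snail genes, Snai2 (chromosome 16 from 14705859 to 14709382 on mm10) encodes the repressor Slug. Tumors 26043 and 26044 held 20.9 and 15.0 FPKM of it, against 1.42 and 0.413 FPKM in tumors 26048 and 26050. The genotypes did not overlap, and the lowest triple-mutant tumor was well above the highest double-mutant one. Means were 17.9 ± 4.2 FPKM (SD, n = 2) and 0.916 ± 0.711 FPKM (SD, n = 2), and the log2 fold change was 3.34 (standard error 0.42, unadjusted p = 0.000778, limma adjusted p = 0.179). By unadjusted p it ranked 52 among the 12752 genes, and its log2 fold change lay between 2.95 and 4.33 in all 12 alternative settings. Counting did not limit the contrast, since the bounds of Cufflinks' interval corresponded to 1365 and 1561 fragments in tumor 26043 and to 11 and 37 fragments in tumor 26050.

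Snai1 (chromosome 2 from 167538227 to 167542811) encodes Snail, the founding repressor of Cdh1. It was at 3.92 FPKM in tumor 26043 and at 62.7 FPKM in tumor 26044, with 28.4 and 20.7 FPKM in the double-mutant tumors 26048 and 26050 in between. The highest value was 16.0-fold the lowest, and both extremes belonged to triple-mutant tumors. The log2 fold change between genotypes was -0.51 (standard error 1.26, adjusted p = 0.908 from limma), and it was 1.33 without tumor 26043 and -2.36 without tumor 26044. The relative use of the Snail genes therefore differed between tumors. Per length, Snai2 was 5.33-fold the level of Snai1 in tumor 26043, but 0.239-fold in tumor 26044 and 0.0199-fold in tumor 26050 (log2 ratios of 2.41, -2.06, -4.32 and -5.65 in the order of the tumors).

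The levels of Snai1 depend on how Cufflinks arrived at them. Its FPKM was 2.22 to 2.71 times the midpoint of its own interval, most in tumor 26044, whereas Snai2 was at 0.738 and 0.731 times the midpoint in triple-mutant and at 0.988 and 0.963 times in double-mutant tumors. With the midpoint in place of the FPKM, an alternative added once the data had been seen, the log2 fold change of Snai2 was 3.75. On that scale Snai1 was at 1.76 and 23.2 FPKM in tumors 26043 and 26044 and at 12.6 and 9.14 FPKM in tumors 26048 and 26050, in the same order as before. The ratio of Snai2 to Snai1 moved with this choice, to 16.0 in tumor 26043, 0.885 in tumor 26044, 0.114 in tumor 26048 and 0.0469 in tumor 26050, so its order among the tumors was kept and its size was not.

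Because Snail proteins bind the E-box CACCTG, the promoter windows of the 10 genes in RefSeq (GRCm38.p6, 250 bases before to 50 after the start) were searched for these letters on both strands, the reverse complement being CAGGTG. Windows were held for 5 of the genes, Snai1, Twist1, Twist2, Vim and Zeb2. The Snai1 window, the one with a match, is shown because Snai1 varied most between the triple-mutant tumors. It lies at chr2:167537945-167538244 on the plus strand, and the capitals mark the E-box, whose first base is 126 bases before the start.
Snai1 promoter: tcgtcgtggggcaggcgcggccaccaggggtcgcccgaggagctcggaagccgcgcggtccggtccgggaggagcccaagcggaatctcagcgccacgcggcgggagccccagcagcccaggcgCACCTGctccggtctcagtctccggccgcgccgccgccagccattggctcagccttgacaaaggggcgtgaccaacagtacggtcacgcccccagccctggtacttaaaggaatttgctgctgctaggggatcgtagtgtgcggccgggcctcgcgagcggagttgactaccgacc
The same letters occurred in 20.2% of all 32851 promoter windows of this length, so the match is a description and not evidence of binding.

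The Zeb genes were low in most tumors, and they did not move together. Zeb1 (chromosome 18 from 5591860 to 5775468) was at 0.741 FPKM in tumor 26043, 7.90 FPKM in tumor 26044, 2.18 FPKM in tumor 26048 and 1.05 FPKM in tumor 26050. Tumor 26044 was highest by far, and the other triple-mutant tumor was lowest. The log2 fold change of Zeb1 was 0.63 (standard error 0.86, adjusted p = 0.818 from limma), and it was -0.55 without tumor 26044.

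Zeb2 (chromosome 2 from 44983634 to 45113279) had its lowest value where Zeb1 had its highest, with 0.673 FPKM in tumor 26044 against 1.44 FPKM in tumor 26043 and 2.28 and 1.36 FPKM in the double-mutant tumors. Its log2 fold change was -0.46 (standard error 0.38, adjusted p = 0.702 from limma), and -0.19 without tumor 26044. Within tumor 26044, Zeb1 was at 11.8-fold the level of Zeb2 per length, while in the other 3 tumors this ratio was between 0.516 and 0.958. These levels were countable despite being low. The interval of Zeb1 spanned 1569 to 1771 fragments in tumor 26044 and 107 to 169 in tumor 26043, and that of Zeb2 spanned 239 to 321 fragments in tumor 26044 and 447 to 568 in tumor 26043. Genes annotated on the opposite strand overlap 5 of the 10 genes (Zeb1, Zeb2, Twist2, Cdh2 and Fn1), and whether Cufflinks was run with strand is not given in the sources used here.

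For the Twist genes, 1 tumor of the 4 differed in each case, and it was not the same tumor. Twist1 (chromosome 12 from 33957671 to 33959831) was at 22.5 FPKM in both triple-mutant tumors and at 27.4 FPKM in tumor 26048, but at 1.93 FPKM in tumor 26050. Both triple-mutant tumors thus lay between the double-mutant ones. The log2 fold change was 1.37 (standard error 1.12, adjusted p = 0.703 from limma), -0.27 without tumor 26050 and 3.01 without tumor 26048.

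Twist2 (chromosome 1 from 91801477 to 91848027) was at 6.48 FPKM in tumor 26044 and at 0.850, 0.933 and 0.792 FPKM in tumors 26043, 26048 and 26050. It had 1 FPKM or more in tumor 26044 only, so it did not reach the filter and has no test in the comparison above, the single gene of the 10 for which this holds. Its interval spanned 113 to 180 fragments in tumor 26044 and between 9 and 37 fragments in the other tumors, and the intervals of those 3 tumors overlapped one another, so their order could not be told at this depth.

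On the epithelial side, Cdh1 (chromosome 8 from 106603368 to 106670246) was at 100.1 FPKM in tumor 26043, 122 FPKM in tumor 26048 and 69.7 FPKM in tumor 26050, but at 10.4 FPKM in tumor 26044. E-cadherin mRNA was therefore abundant in 3 tumors, where it ranked above 94.1% to 96.6% of all gene rows, and at the 72.9 percentile in tumor 26044. For Cdh1 the FPKM lay inside Cufflinks' interval in each tumor (9.78 to 10.96 FPKM in tumor 26044). Between genotypes the log2 fold change of Cdh1 was -1.46 (standard error 1.11, adjusted p = 0.684 from limma). Without tumor 26044 it was 0.12, and without tumor 26043 it was -3.04 (adjusted p = 0.136 from limma), so the sign of the genotype difference rested on tumor 26044.

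On the mesenchymal side, Vim (chromosome 2 from 13574311 to 13582826) was among the most abundant mRNAs of every tumor, above 98.3% to 99.3% of all gene rows. Tumors 26043 and 26044 had 324 and 704 FPKM, and tumors 26048 and 26050 had 372 and 254 FPKM. The double-mutant values fell on both sides of tumor 26043. For Vim the log2 fold change was 0.64 (standard error 0.49, adjusted p = 0.686 from limma), and it was 0.08 without tumor 26044.

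Cdh2 (chromosome 18 from 16588877 to 16809049) had 3.80 and 6.32 FPKM in triple-mutant and 3.505 and 1.10 FPKM in double-mutant tumors. Its genotypes did not overlap, but the separation was narrow, since the interval of tumor 26043 (3.76 to 4.76 FPKM) overlapped that of tumor 26048 (3.10 to 4.005 FPKM). The log2 fold change was 0.95 (standard error 0.51, adjusted p = 0.591 from limma). Cdh2 was below Cdh1 per length in all 4 tumors, at 0.610-fold in tumor 26044 and at 0.0158-fold to 0.0380-fold in the others.

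Fn1 (chromosome 1 from 71585523 to 71653171) did not follow Vim. It was at 22.5 FPKM in tumor 26043 and 109 FPKM in tumor 26044, and at 206 and 67.4 FPKM in the double-mutant tumors 26048 and 26050, so tumor 26048 was highest. Its log2 fold change was -1.23 (standard error 0.94, adjusted p = 0.686 from limma). Leaving out 1 tumor moved it to -0.12 (without tumor 26043), -2.34 (without tumor 26044), -0.43 (without tumor 26048) or -2.02 (without tumor 26050). Fat cell markers were also highest in tumor 26048, with Fabp4 at 1263 FPKM against 7.01 to 261 FPKM and Adipoq at 56.0 FPKM against 0 to 0.829 FPKM in the other tumors, and the part of such tissue in the Fn1 level was not tested.

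Per length, Vim was 67.9-fold the level of Cdh1 in tumor 26044 and 3.24-fold, 3.05-fold and 3.64-fold in tumors 26043, 26048 and 26050. The latter 3 tumors were close to each other and came from both genotypes. Such a ratio within 1 tumor does not move with a scale factor per library. Its size does depend on how Cufflinks arrived at the values. The FPKM of Vim was 1.21 to 1.39 times the midpoint of its interval, and that of Cdh1 0.983 to 1.02 times. Fn1 was 10.5-fold the level of Cdh1 in tumor 26044, and 0.225-fold, 1.69-fold and 0.968-fold in tumors 26043, 26048 and 26050.

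**Figure D2:**
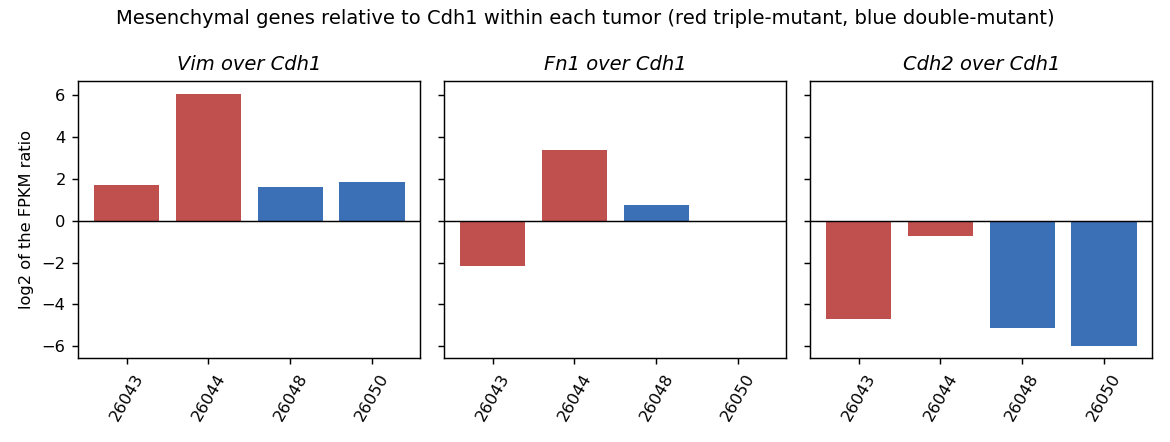
Log2 of the FPKM ratio of Vim, Fn1 and Cdh2 to Cdh1 within each tumor (red, triple-mutant; blue, double-mutant; a bar above 0 means that the gene exceeded Cdh1). Tumor 26044 has the highest bar in every panel, with 6.08 for Vim where the other tumors have 1.61 to 1.86.

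The comparison of genotypes set the triple-mutant tumors against the double-mutant tumors for these genes. Of the 9 genes tested, 0 had an adjusted p under 0.05 in limma and 1, Snai2, had an unadjusted p under 0.05, where these shares were 0.0% and 9.82% over all 12752 genes. For 2 of the 9 genes the lower triple-mutant tumor exceeded the higher double-mutant tumor (Snai2 and Cdh2), and 0 genes were apart in the other direction. Over all tested genes the genotypes did not overlap in 44.3%, with 21.3% higher in triple-mutant and 22.9% higher in double-mutant tumors, so the 10 genes did not separate the genotypes more often than genes at large. The genotype difference exceeded both gaps between tumors of the same genotype in 1 of the 10 genes, and in 29.6% of all tested genes. The median log2 fold change was 0.63 over the 9 genes and -0.02 over all tested genes. That of the 9 genes rested on single tumors, being 0.08 without tumor 26044, -0.27 without tumor 26050, 1.25 without tumor 26043 and 0.91 without tumor 26048.

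**Figure D3:**
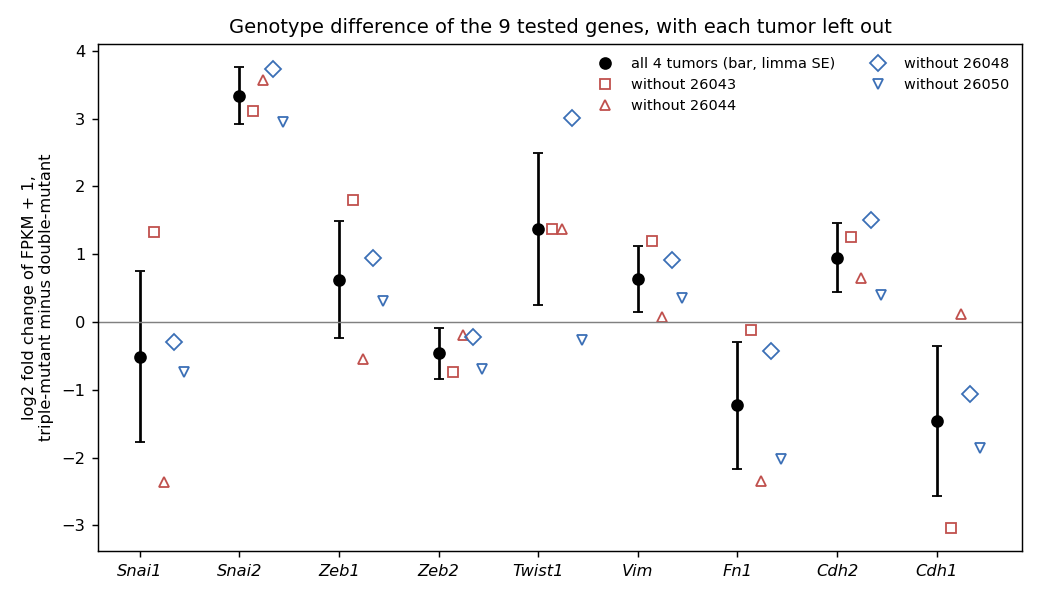
Log2 fold change of FPKM + 1 (triple-mutant minus double-mutant) of the 9 tested genes, with all 4 tumors (black, bar for limma's standard error) and with each tumor left out (open symbols). Snai2 stays between 2.95 and 3.73 whichever tumor is left out, while the values of Snai1, Zeb1, Twist1 and Cdh1 cross 0.

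The other genes of the EMT program were taken from 7 lists of 141 genes, of which 126 were tested. Of these, 0 passed an adjusted p of 0.05 in limma and 25 had an unadjusted p under 0.05. Over all tested genes these shares were 0.0% and 9.82%. The lists were compared by the place of each tumor. Among 29 genes of epithelial junctions and polarity, tumor 26044 was the lowest of the 4 tumors for 23 (79.3%), and among 15 factors of the epithelial state for 12, where it was the lowest for 39.0% of all tested genes. The counts were repeated with TPM, quantile normalization and interval midpoints once the data had been seen. These shares were then the same, while the share over all genes ran from 31.3% to 47.3%. Low Cdh1 in tumor 26044 was thus part of a wider pattern among epithelial genes.

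In the epithelial factor list, 6 genes were higher in both double-mutant and 1 in both triple-mutant tumors, with a median log2 fold change of -0.52 that became 0.33 without tumor 26044 and -1.96 without tumor 26043. Over all tested genes these shares were 22.9% and 21.3%, and with TPM the 6 genes became 4. Esrp1, which directs epithelial splicing, was at 53.9 FPKM in tumor 26043 and 2.60 FPKM in tumor 26044, against 65.4 and 60.7 FPKM in double-mutant tumors (log2 fold change -2.19, standard error 1.33, adjusted p = 0.625 from limma, and -0.22 without tumor 26044). Elf5, a regulator of alveolar cells, was at 43.6 and 4.84 FPKM against 66.0 and 102.7 FPKM. Its log2 fold change was -2.37, and -0.90 without tumor 26044. Foxa1, a pioneer factor of luminal cells, went the other way, from 40.9 and 8.44 FPKM in tumors 26043 and 26044 to 3.62 and 0.341 FPKM in tumors 26048 and 26050 (standard error of the log2 difference 0.97, adjusted p = 0.481 from limma).

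Of the junction genes, 5 were higher in both triple-mutant and 3 in both double-mutant tumors, against 21.3% and 22.9% of all tested genes, so that fewer were apart than among genes at large. The median log2 fold change was -0.62, and it was 0.51 without tumor 26044 and -1.79 without tumor 26043. The claudin gene Cldn7 was at 228 and 14.4 FPKM in the triple-mutant tumors 26043 and 26044 and at 293 and 266 FPKM in double-mutant tumors (log2 fold change -2.24, and -0.29 without tumor 26044). Cdh3, the P-cadherin of basal cells, was an exception to the pattern of Cdh1, with 26.9 and 46.9 FPKM in tumors 26043 and 26044 and 4.62 and 3.76 FPKM in tumors 26048 and 26050 (log2 fold change 2.82, standard error 0.39, unadjusted p = 0.00113, adjusted p = 0.194 from limma). Like Snai2, it was high in both triple-mutant tumors whether Cdh1 was high or low.

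The mesenchymal effector genes did not mirror this pattern. Tumor 26044 was the highest for 8 of 29 (27.6%, against 24.2% of all tested genes) and the lowest for 13 (44.8%, against 39.0%). Of the 29 genes, 13 were higher in both double-mutant and 4 in both triple-mutant tumors (22.9% and 21.3% of all tested genes). Their median log2 fold change was -0.42, and it lay between -0.81 and -0.38 with each tumor left out. Lox, which cross-links collagen, was at 1.38 and 0.409 FPKM in tumors 26043 and 26044 and at 11.1 and 9.46 FPKM in tumors 26048 and 26050 (log2 fold change -2.62, standard error 0.40, adjusted p = 0.214 from limma). The matrix gene Tnc was at 31.3 and 3.94 FPKM against 114 and 33.4 FPKM, so tumors 26043 and 26050 were almost level. Its log2 fold change was -2.32 (standard error 1.10, adjusted p = 0.560 from limma), and -0.96 without tumor 26044. With TPM, the 13 genes higher in both double-mutant tumors became 12. Acta2, which encodes smooth muscle actin of myoepithelial cells, pericytes and myofibroblasts, was at 64.8 FPKM in tumor 26043 and 898 FPKM in tumor 26044, with 59.7 and 31.8 FPKM in double-mutant tumors (log2 fold change 2.45, and 0.56 without tumor 26044).

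**Figure D4:**
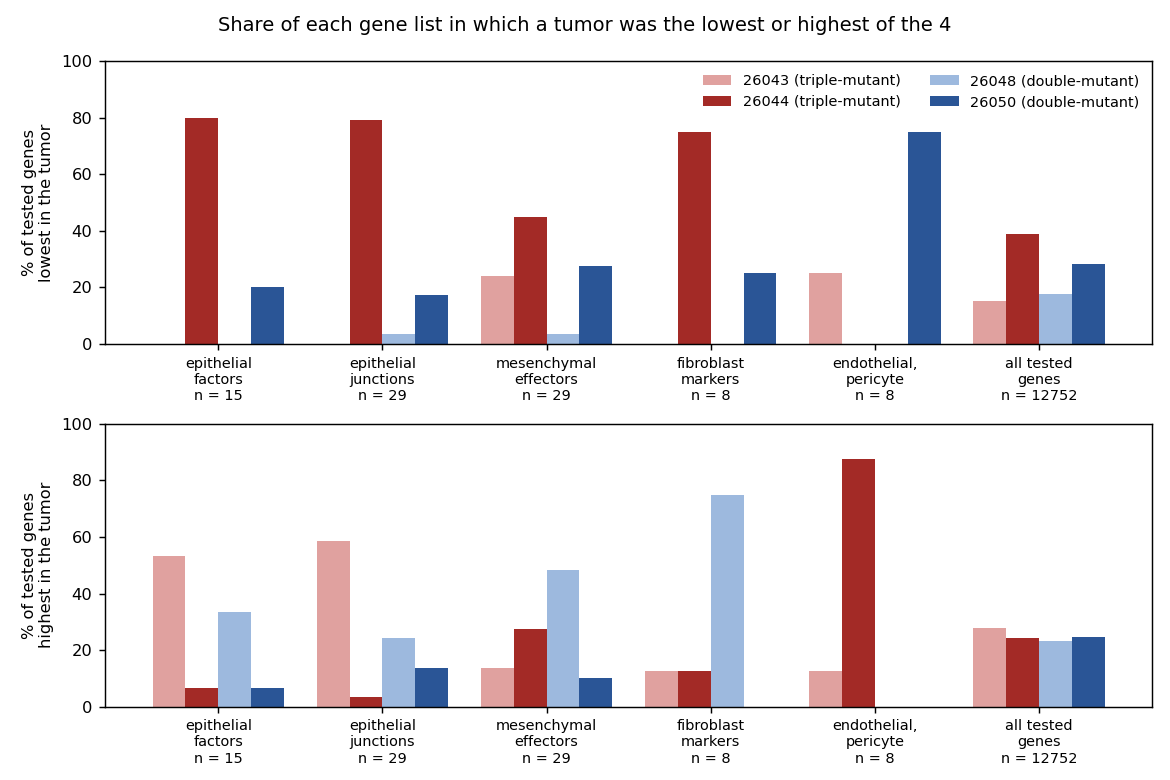
Share of the tested genes of each list (percent, n below each group of bars) for which a tumor was the lowest (upper panel) or the highest (lower panel) of the 4. Tumor 26044 is the lowest for 12 of 15 epithelial factors, 79.3% of the junction genes and 75.0% of the fibroblast markers, against 39.0% of all tested genes. It is the highest for 87.5% of the endothelial and pericyte markers, against 24.2% of all tested genes.

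Among further EMT transcription factors, 4 of 16 tested genes were higher in both triple-mutant and 2 in both double-mutant tumors, and tumor 26044 was the highest for 8, where these shares were 21.3%, 22.9% and 24.2% of all tested genes. Hmga2, a chromatin factor of embryonic and mesenchymal cells, was at 1.42 and 1.53 FPKM in tumors 26043 and 26044 and at 7.54 and 8.43 FPKM in the others (log2 fold change -1.86, standard error 0.30, unadjusted p = 0.0023, adjusted p = 0.234 from limma). The homeobox gene Msx2 had 3.86 and 1.95 FPKM against 0.164 and 0.359 FPKM. Tcf4, which encodes a partner of Twist proteins, had 17.1 and 23.8 FPKM against 12.8 and 5.83 FPKM.

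Regulators of Snail, Zeb and Twist proteins were listed as 27 genes, 25 of them tested, of which 8 were higher in both triple-mutant and 6 in both double-mutant tumors (21.3% and 22.9% of all tested genes). With interval midpoints the 6 became 3. Proteins of the Id family bind E proteins, which Twist needs as partners. Id4 was at 191 and 180 FPKM in the triple-mutant tumors against 1.78 and 0.499 FPKM in the others. Its adjusted p of 0.069 from limma was the smallest in these lists. Id3 was at 185 and 172 FPKM against 19.8 and 5.37 FPKM, and Id1 at 94.6 and 55.8 FPKM against 20.2 and 4.64 FPKM. Id2 went the other way, with 65.9 and 12.2 FPKM against 76.2 and 106 FPKM (log2 fold change -1.61, and -0.44 without tumor 26044). Jub, the LIM protein Ajuba that acts as a corepressor of Snail, was at 40.7 and 58.6 FPKM against 7.37 and 3.42 FPKM (log2 fold change 3.03, standard error 0.44, adjusted p = 0.204 from limma). Id4, Id3, Id1 and Jub were thus higher in both triple-mutant tumors, as Snai2 was.

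For the TGF-beta genes, an upstream input of EMT, 1 of 12 was higher in both triple-mutant and 4 in both double-mutant tumors, against 21.3% and 22.9% of all tested genes, and with TPM these counts were 2 and 3. Their median log2 fold change was -0.11, and it ranged from -0.38 to 0.22 with each tumor left out. The coreceptor gene Tgfbr3 was at 11.9 and 41.6 FPKM against 2.45 and 3.36 FPKM. The ligand genes Tgfb2 and Tgfb3 went the other way, Tgfb2 with 7.30 and 5.93 FPKM against 11.5 and 38.5 FPKM, and Tgfb3 with 14.03 and 7.65 FPKM against 23.5 and 21.6 FPKM. The genes of 9 microRNAs that target Zeb or Snail mRNAs, the miR-200 family among them, were listed at 0 in every tumor. A polyA library does not measure mature microRNAs, so nothing can be said of their levels.

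In bulk tumors, fewer cells of a type and less RNA per cell cannot be told apart, and so the levels of other cell types are given beside these results. The summed FPKM of 9 fibroblast markers was 241 and 139 in triple-mutant tumors 26043 and 26044 and 948 and 459 in double-mutant tumors 26048 and 26050. Tumor 26044, where Vim and Snai1 were highest, was the lowest for 6 of the 8 fibroblast markers tested, against 39.0% of all tested genes. Col1a1 was at 32.6 FPKM there against 102 to 486 FPKM in the other tumors. Pdgfra and Pdgfrb were the exceptions. Pdgfra was highest in tumor 26044, at 19.1 FPKM against 1.44 to 2.90 FPKM. Pdgfrb was at 10.9 FPKM there and at 9.32, 18.4 and 7.15 FPKM in tumors 26043, 26048 and 26050. The part of fibroblasts in the mesenchymal effector counts was not tested.

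Endothelial and pericyte markers were highest in tumor 26044 for 7 of 8 tested genes, against 24.2% of all tested genes. Their sum over 9 genes was 261 FPKM there against 63.9 to 108 FPKM in the other tumors. Pecam1, the endothelial adhesion protein CD31, was at 28.5 FPKM in tumor 26044 and at 8.54, 15.0 and 8.65 FPKM in tumors 26043, 26048 and 26050. Vim and Zeb1, which endothelial cells and pericytes express, were also highest there, and the part of these cells in the Vim and Zeb1 levels was not tested. The 10 leukocyte markers summed to 52.5 FPKM in tumor 26044 and to 116 to 187 FPKM in the others, with Ptprc (CD45) at 1.61 FPKM against 3.67 to 4.02 FPKM. Of the leukocyte markers 4, of lymphocytes, were below 1 FPKM in every tumor.

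Of the 6 markers of mammary tumor epithelium, Krt5, a keratin of basal cells, was at 596 and 114 FPKM in tumors 26043 and 26044 and at 1.15 and 2.06 FPKM in tumors 26048 and 26050, in the same order of genotypes as Snai2 (log2 fold change 6.68, standard error 0.85, adjusted p = 0.179 from limma). The simple keratin genes Krt8 and Krt18 were at 98.3 and 80.3 FPKM in tumor 26044, and between 579 and 729 FPKM in the other 3 tumors. Keratin mRNA was therefore still plentiful in the tumor with the lowest Cdh1.

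For the 6 tested genes that ranged over at least 2 log2 units, the genes of most similar profile were sought by the Euclidean distance between centred log2 profiles over the 4 tumors, a description over 4 points. Nearest to Snai2 were Foxp1 (distance 0.32 log2 units, with 47.7 and 37.9 FPKM in triple-mutant and 6.23 and 2.77 FPKM in double-mutant tumors), Matn2 and Timp3. Nearest to Snai1 were Lef1 (0.13), G0s2 and Apln. Lef1, itself on the list of further EMT factors, had 0.630 and 21.8 FPKM in triple-mutant and 9.12 and 5.86 FPKM in double-mutant tumors.

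Zeb1 was closest to Pde2a (0.03), Prrx2 (0.05) and Prnd (0.12), and Prrx2, another gene of that list, was at 19.4 FPKM in tumor 26044 and at 2.89 to 6.45 FPKM in the others. For Cdh1 they were Anxa1 (0.23), Foxc1 (0.24) and Slc5a9. Foxc1, although listed with the EMT factors, followed Cdh1, with 3.35 FPKM in tumor 26044 against 24.4 to 42.5 FPKM. Twist1 was closest to Galntl4, Adamts1 and Pdgfb, at distances of 0.54 to 0.64, and Fn1 to Stac2, Stk32b and Prtn3, at 0.28 to 0.61.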

How the data were processed

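PolyA-mRNA of 4 tumors was sequenced from strand-marking (dUTP) libraries. Reads were aligned to mm10 with TopHat2 2.0.10 and Bowtie 0.12.9, per the labels' processing notes, and the deposited FPKM and the bounds of its interval, in the same FPKM unit, were made by the authors with Cufflinks 2.1.1, 1 table per tumor. The authors' read counts were not used here. The 10 genes and all lists were chosen with earlier results of these data known.

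Tables were joined on symbol and position (starts raised by 1), and limma 3.58.1 (R 4.3.3, eBayes with a trend) was run on log2(FPKM + 1) of genes reaching 1 FPKM in 2 or more tumors, adjusted by Benjamini-Hochberg over all 12752 genes, threshold 0.05. The study tested counts, so limma on a log scale stands in its place. A fold change on this scale understates the change of low genes. The fit was tested on simulated data. Tumors are not stated to come from separate animals, so p-values cover only the spread between these tumors. Of 21209 rows with a symbol in GENCODE M21 (GRCm38, the sequence of mm10), 98.0% overlapped that gene.

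Interval bounds of low genes step by whole fragments (tolerance 0.05 fragments for the genes given), which gave relative depth and fragment numbers for 7 of the 10 genes. The total depth is not given. In 25 of the 40 values the FPKM lay outside its own interval. Of each list, the 3 genes with the largest log2 fold change among those with non-overlapping genotypes were named, with the 10 genes, the deleted gene Rank and fixed markers. A gene that this rule named is not reported here. Genes named beyond this rule were chosen after their values were seen. Tables were handled with pandas 2.3.3 and numpy 2.4.6 under Python 3.11.15, and plots drawn with matplotlib 3.10.9. The alternatives were a pseudocount of 0.1, no filter or 5 FPKM, TPM, quantile normalization, no trend, status OK, each tumor left out and, added later, the interval midpoint.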

Additional observations from a re-analysis of the deposited data

How the results depend on the processing

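Of the 105 alternative values of the 9 log2 fold changes, 101 kept their sign and side of the threshold, and 4 changed sign, each when 1 tumor was left out. They were Snai1 (1.33 without tumor 26043, leave-one-out range -2.36 to 1.33), Zeb1 (-0.55 without tumor 26044, range -0.55 to 1.80), Cdh1 (0.12 without tumor 26044, range -3.04 to 0.12) and Twist1 (-0.27 without tumor 26050, range -0.27 to 3.01). The number of the 10 genes past the threshold was 0 in every setting run. Over all tested genes it was 0, with 1252 at an unadjusted p under 0.05, and became 6 with quantile normalization, 5 with limma without the trend and 1 with the interval midpoint. For the wider EMT lists it became 1 with quantile normalization. With each tumor left out, these counts were 0. The median log2 fold change of all tested genes was -0.12 without tumor 26043 and between -0.05 and 0.06 in the other settings. The adjusted p of Snai2 ran from 0.137 to 0.918 over its 12 alternatives, highest without double-mutant tumor 26050, where 1 tumor stood alone and was taken to vary like the others. With quantile normalization 1 of the 9 genes was higher in both double-mutant tumors, where the count was 0 before. The cause of these shifts was not tested. No paired analysis was possible because which tumors came from littermates is not given. Depth limited the order of the lowest Twist2 values.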

Other observations

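Of the listed genes, Hand2 and Spock1 were close to 0 in 3 tumors and present in tumor 26044. They, and Hdac2 below, were chosen after their values were seen. Hand2, a helix-loop-helix factor that can pair with the partners of Twist, was at 7.86 FPKM in tumor 26044, listed at 0 in tumors 26043 and 26048 and at 0.0504 FPKM in tumor 26050. Spock1, a proteoglycan gene of the mesenchymal list, was at 3.46 FPKM in tumor 26044 and at 0.00861, 0.0433 and 0.0693 FPKM in tumors 26043, 26048 and 26050. Both failed the filter and were not tested. Hdac2, a corepressor of Snail, was at 307 FPKM in tumor 26044, 74.7 FPKM in tumor 26043 and 30.6 and 52.6 FPKM in double-mutant tumors.

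Sox10, entered as a Schwann cell marker, was at 225 to 298 FPKM in all 4 tumors.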
